A study of Mus musculus with 4 samples.

Results

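The 4 Id inhibitor genes Id1, Id2, Id3 and Id4 and the 3 E-protein genes Tcf3, Tcf4 and Tcf12 were followed through the RNA-Seq of mouse primary oligodendroglial cultures (1° OGCs) with and without Zfp276, a zinc finger protein of the oligodendroglial lineage. They were chosen by gene symbol, as the Id proteins of the mouse and the E proteins that they bind, and are 7 of the 53465 genes counted. All 7 passed the filter on low counts. The cells had differentiated for 3 days in culture. Ctrl cultures carried the Zfp276 fl/fl allele without Cre, and Zfp276cko cultures carried Zfp276 fl/fl together with Sox10::Cre. There were 2 libraries per genotype, each from a preparation that pooled cells of 3 mice between postnatal days 2 and 4. Sox10::Cre is a transgene under the control of the Sox10 gene, which is active in oligodendroglial cells, so other cells in the cultures keep Zfp276. Per the study's methods, the mice had a genetic background mixed from C3H and C57Bl/6J, and for these cultures a Rosa26 stopflox-tdTomato reporter allele was crossed in to recognise newborn Zfp276cko mice. The floxed allele loses exons 2 to 5, and the other exons can still be counted.

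Id proteins are helix-loop-helix proteins without the basic region that contacts DNA. E proteins have this region, bind E boxes as dimers with each other or with cell type-specific factors such as Olig1 and Olig2, and lose DNA binding when an Id protein takes the place of the partner. Bone morphogenetic proteins (BMPs) induce Id genes through Smad proteins, and in the oligodendroglial lineage Id2 and Id4 are known as inhibitors of differentiation. Tcf3 encodes the E2A proteins, Tcf12 encodes HEB, and Tcf4 encodes E2-2, an E protein that is unrelated to the Wnt effector Tcf7l2 although the latter is often called TCF4.

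The Id genes are short and alike in their central part. The most similar stretch of their coding sequences is shown because it encodes a part of the dimerization domain and because similar sequences could in principle exchange reads. It comprises 60 nt in the first coding exon of each gene. Capitals mark the 42 positions at which all 4 genes have the same base, and the sequences are from the GENCODE transcripts of mm10.
Id1 (chr2:152736587-152736646, plus strand, bases 247 to 306 of the coding sequence): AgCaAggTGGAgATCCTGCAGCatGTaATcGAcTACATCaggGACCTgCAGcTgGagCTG
Id2 (chr12:25095774-25095833, minus strand, bases 178 to 237): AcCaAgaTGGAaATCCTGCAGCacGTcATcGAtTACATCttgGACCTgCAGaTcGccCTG
Id3 (chr4:136144071-136144130, plus strand, bases 193 to 252): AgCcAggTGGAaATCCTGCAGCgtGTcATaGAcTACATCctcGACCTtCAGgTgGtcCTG
Id4 (chr13:48261762-48261821, plus strand, bases 265 to 324): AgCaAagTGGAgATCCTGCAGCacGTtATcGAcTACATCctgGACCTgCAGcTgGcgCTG
Between 78.3% (Id2 and Id3) and 90% (Id1 and Id4) of the bases in this stretch were identical in pairs of genes. The longest run of bases shared by transcripts of a pair of Id genes was 11 to 19 nt. Reads were 101 bases long, so no read can match a pair of Id genes over its full length without a mismatch.

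Sequence before the transcription start was compared for genes that had a RefSeq promoter window of 300 nt (250 before and 50 after the start, GRCm38.p6). Id2 and Id4 are shown because the study tested regulatory regions of both, although at other sites than these. Only stretches before the start or outside annotated exons are given. Capitals mark GGCGCC, a site known to be bound by BMP-regulated Smads, CAGCTG, an E box, and CCAAT, which reads ATTGG on the other strand.
Id2 (chr12:25096254-25096342, minus strand): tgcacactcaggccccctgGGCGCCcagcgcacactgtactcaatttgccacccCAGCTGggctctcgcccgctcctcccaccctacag
Id4 (chr13:48260866-48261115, plus strand): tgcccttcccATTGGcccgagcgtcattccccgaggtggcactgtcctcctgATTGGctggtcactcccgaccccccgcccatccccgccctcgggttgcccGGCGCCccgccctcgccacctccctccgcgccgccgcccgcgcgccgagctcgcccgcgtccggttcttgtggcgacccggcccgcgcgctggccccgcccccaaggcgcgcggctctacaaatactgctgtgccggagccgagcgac
The 89 nt of Id2 held 1 GGCGCC and 1 CAGCTG. They lie within the GENCODE bounds of Id2 (25093799 to 25097140) but outside its exons. The full window of Id2 also held 3 CCAAT, all outside the printed stretch. The 250 nt of Id4 held 1 GGCGCC and 2 CCAAT, as did its full window. Searched on both strands, GGCGCC occurred in 11.9%, CAGCTG in 16.3% and CCAAT in 37.4% of all 32851 RefSeq windows of 300 nt. The window of Id3 held no match to these 3 motifs, to the E box CAGGTG (20.2% of all windows) or to the Sox sites ACAATG (12.6%) and ACAAAG (18.7%). The matches describe letters only, and binding was not measured in these data.

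Libraries held 21068322 to 26599809 counted reads, and 15766 genes were tested. Zfp276 itself was at 1648 and 2230 normalized counts in ctrl and at 490 and 503 in Zfp276cko libraries. The mean in Zfp276cko was 0.256 of ctrl (log2 fold change −1.97, SE 0.18). With edgeR's quasi-likelihood test the adjusted p was 0.0962. No gene passed this test at an adjusted p of 0.05 with a log2 fold change beyond 0.6 in size and a mean normalized count from 20 upward (0% of genes higher and 0% lower), whereas DESeq2 called 449 genes higher (3.02% of genes with an adjusted p) and 338 lower (2.27%). At an unadjusted p of at most 0.05, 8.33% of genes were higher and 7.3% lower in edgeR. The median absolute log2 difference was 0.29 between the ctrl libraries and 0.0865 between the Zfp276cko libraries. Ctrl replicate 1 stood apart by fibroblast genes, with Col1a2 at 2703 normalized counts against 41.2 to 49.8 in the other libraries. Its neuronal markers summed to 18003 against 22378 to 31349, with Gad1 at 78.4 against 920 to 2002. Its microglial markers summed to 55934 against 28756 to 41200. Without ctrl replicate 1, Id1, Id2 and Id3 had log2 fold changes of 1.14, 0.65 and 0.80. For 26.8% of genes both Zfp276cko values exceeded both ctrl values, and for 23.7% both were smaller.

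Id1, Id2 and Id3 were higher in Zfp276cko than in ctrl cultures, with ratios of means of 1.54 to 1.95 and without overlap of the genotypes, and Id4 was not separated. Id1 was at 782 and 612 normalized counts in ctrl and at 1379 and 1313 in Zfp276cko libraries. Both Zfp276cko libraries were thus above both ctrl libraries, with means of 697 ± 120 in ctrl and 1346 ± 46.8 in Zfp276cko (SD, n = 2 each). The log2 fold change was 0.95 (SE 0.15, 95% interval 0.53 to 1.37). The p was 0.00295 before and 0.139 after Benjamini-Hochberg adjustment in edgeR's quasi-likelihood test, and the adjusted p of DESeq2 was 0.00113.

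Id3, a close relative of Id1 that is likewise a known BMP target, was at 1505 and 1923 in ctrl and at 3357 and 3325 in Zfp276cko libraries. The ctrl libraries differed by more than the Zfp276cko libraries did, and the genotypes did not overlap. Every pairing of a Zfp276cko with a ctrl library gave a ratio between 1.73 and 2.23. The log2 fold change was 0.96 (SE 0.15, 95% interval 0.56 to 1.36), with an adjusted p of 0.132 in edgeR and 0.000115 in DESeq2.

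Id2 had the highest counts of the Id genes, with 3227 and 3125 in ctrl and 4570 and 5211 in Zfp276cko libraries. The ctrl libraries lay close together, and only 9.61% of 14324 genes differed less between them. The means were 3176 ± 72.2 and 4891 ± 453 (SD, n = 2 each), a ratio of 1.54. The log2 fold change of 0.62 (SE 0.11, 95% interval 0.32 to 0.92) was near the threshold of 0.6, with an adjusted p of 0.153 in edgeR and 0.0066 in DESeq2. It was 0.53 without Zfp276cko replicate 2 and 0.59 without ctrl replicate 2.

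Id4 was the rarest member, with 191 and 272 in ctrl and 208 and 318 in Zfp276cko libraries. Here the genotypes overlapped, and replicate 1 was below replicate 2 in either genotype. The log2 fold change was 0.18 with a 95% interval from −0.68 to 1.04, so that a rise by the size seen for Id1 and Id3 lies inside it and a fall by that size does not. The adjusted p was 0.824 in edgeR and 0.939 in DESeq2. This fold change was −0.05 without ctrl replicate 1 and −0.15 without Zfp276cko replicate 2. The raw counts of 161 to 370 carry a counting error of 5.2% to 7.88%, and 253 nt of the exons of Id4 overlap exons annotated on the opposite strand. The study's methods name a stranded library kit. The strand setting of the counting is not given in the sources used here, so reads of the opposite strand and of Id4 may not have been separated.

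**Figure D1:**
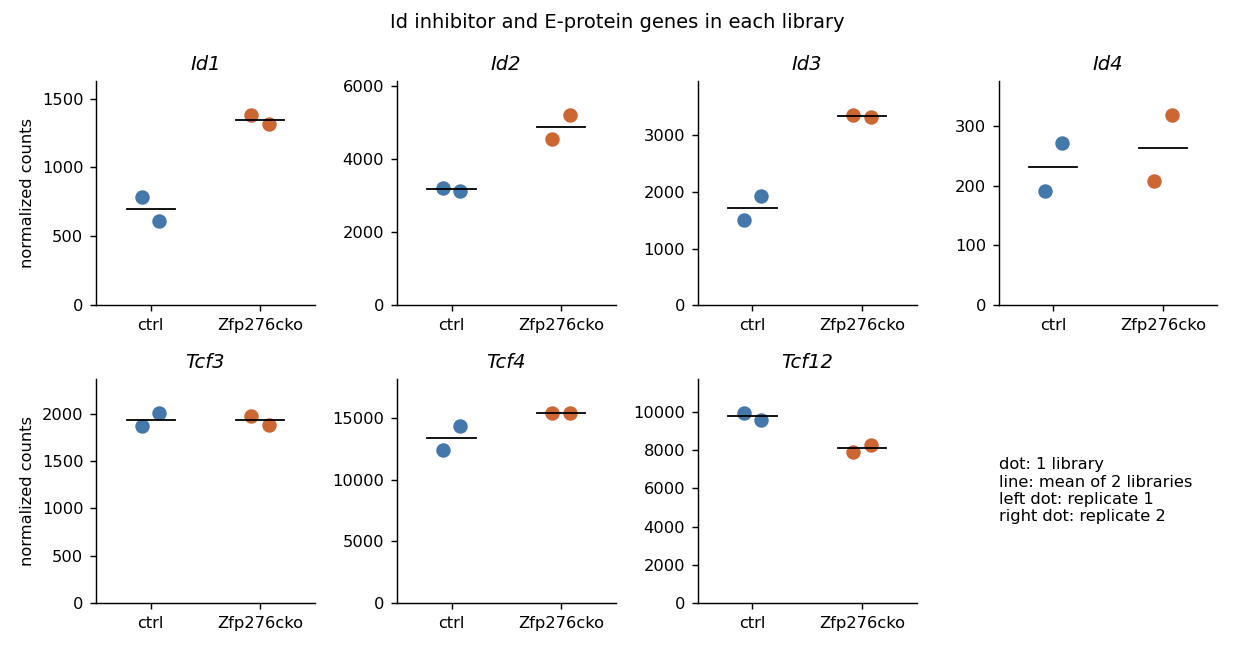
Normalized counts (y axis, from 0, a scale of its own for each gene) of the 7 genes in ctrl and Zfp276cko libraries (x axis), with a dot per library and a line at the mean of 2 libraries. Both Zfp276cko dots lie above both ctrl dots for Id1, Id2, Id3 and Tcf4 and below them for Tcf12, while Id4 and Tcf3 overlap.

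The E proteins differed less between the genotypes than Id1, Id2 and Id3. None was called by edgeR or DESeq2, as was true of most genes. Over all genes edgeR called 0%, and DESeq2 called 3.02% higher and 2.27% lower. Tcf3, on chromosome 10 from 80409514 to 80433647 on the minus strand, was at 1866 and 2009 in ctrl and at 1978 and 1883 in Zfp276cko libraries. The genotypes overlapped, and the 95% interval of the log2 fold change, −0.25 to 0.24, lay within the threshold of 0.6 in either direction.

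Tcf4, on mouse chromosome 18 from 69343356 to 69689079 on the plus strand, was at 12410 and 14389 in ctrl and at 15425 and 15442 in Zfp276cko libraries. Both Zfp276cko libraries were higher than both ctrl libraries, by a ratio of means of 1.15. Tcf4 had a log2 fold change of 0.20 (SE 0.13, 95% interval −0.14 to 0.55), with an adjusted p of 0.508 in edgeR and 0.706 in DESeq2.

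Tcf12, on chromosome 9 from 71842688 to 72111871 on the minus strand, was at 9963 and 9610 in ctrl and at 7927 and 8286 in Zfp276cko libraries, and was the member with both Zfp276cko libraries below both ctrl libraries. The ratio of means was 0.828. The log2 fold change was −0.27 (SE 0.10, 95% interval −0.55 to 0.00), with an unadjusted p of 0.0519 and an adjusted p of 0.325 in edgeR and an adjusted p of 0.294 in DESeq2. The ratio of Tcf4 to Tcf12 counts, chosen after the data were seen and unaffected by any scaling of the libraries, was 1.25 and 1.5 in ctrl and 1.95 and 1.86 in Zfp276cko libraries. It was thus higher in both Zfp276cko libraries, by 1.39-fold on average. With 2 libraries per genotype an exact two-sided permutation test cannot give a p under 0.333, and none was run on this ratio. The longest run of bases that Tcf4 and Tcf12 transcripts share is 47 nt, less than the length of a read.

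**Figure D2:**
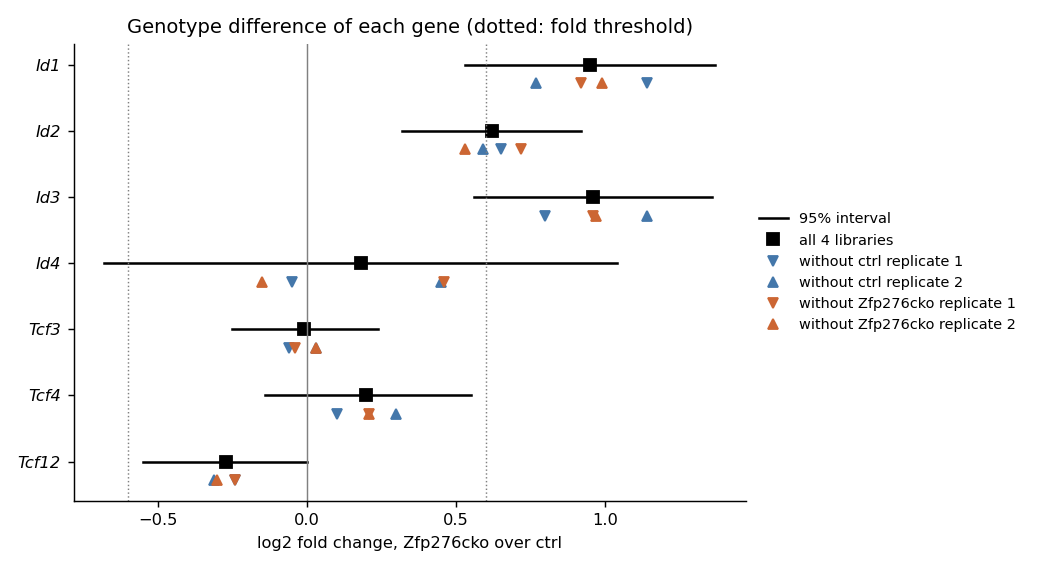
Log2 fold change of each gene, Zfp276cko over ctrl (x axis), from edgeR on all 4 libraries (squares, with 95% intervals as lines) and after leaving out each library (triangles). Dotted lines mark 0.6 in either direction. Id1 and Id3 stay between 0.77 and 1.14, Id2 between 0.53 and 0.72, and Id4 lies on both sides of 0.

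Id1, Id2 and Id3 were higher in Zfp276cko with any library left out, which already follows from the absence of overlap between the genotypes. Without 1 library, the log2 fold change ranged from 0.77 to 1.14 for Id1 and from 0.80 to 1.14 for Id3. Both ends of these ranges came from leaving out a ctrl library, Id1 being higher in ctrl replicate 1 and Id3 in ctrl replicate 2. Tcf12 ranged from −0.31 to −0.24, Tcf4 from 0.10 to 0.30 and Tcf3 from −0.06 to 0.03. In their share of genes called, 3 of the 7 members were called higher by DESeq2 against 3.02% of all genes, and 3 of 7 had an unadjusted p of at most 0.05 and a higher level in edgeR against 8.33%. In 4 of 7 both Zfp276cko values exceeded both ctrl values, against 26.8% of all genes, and in 1 of 7 below, against 23.7%. Members share preparations and are not independent of each other.

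Levels of different genes were compared as RPKM, which are counts scaled to exon length and library size. On this scale Id2 (55.1 ± 1.25 in ctrl, SD, n = 2) was above Id3 (40.5 ± 6.98) and Id1 (25.4 ± 4.39), with Id4 at 2.55 ± 0.631. In Zfp276cko, Id2 (84.9 ± 7.86) and Id3 (78.9 ± 0.537) did not differ beyond their spread, and Id1 was at 49.1 ± 1.71. Id4 made up 1.08% to 2.4% of the summed Id level in all 4 libraries. With exons of all transcripts as length, Tcf12 was at 26.7 ± 0.679 in ctrl and 22.1 ± 0.692 in Zfp276cko, Tcf4 at 20.7 ± 2.16 and 23.8 ± 0.0188, and Tcf3 at 20.3 ± 1.05 and 20.2 ± 0.702. Tcf12 was then above the other E proteins in both ctrl libraries, and Tcf4 above Tcf12 in both Zfp276cko libraries. This order depends on the length used, and with the longest coding transcript Tcf4 (61.2 and 71 in ctrl) was above Tcf12 (66.9 and 64.5) in ctrl replicate 2 as well, and Tcf3 (26.8 and 28.8) below both. The lengths differ since the exons of all transcripts of Tcf4 cover 27382 nt and its longest coding transcript 8577 nt.

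The summed Id level was 122 and 125 in ctrl and 211 and 220 in Zfp276cko libraries, while the summed E-protein level was 65.9 and 69.5 in ctrl and 66.2 in both Zfp276cko libraries. The sum of Id transcripts was therefore higher beside a sum of E-protein transcripts that lay within the range of ctrl. The ratio of both sums was 1.86 and 1.8 in ctrl and 3.19 and 3.33 in Zfp276cko libraries, or 1.83 ± 0.0395 against 3.26 ± 0.0973 (SD, n = 2 each), a 1.78-fold difference. Pairs of libraries gave 1.72-fold to 1.85-fold. With the length of the longest coding transcript, chosen after the data were seen, the ratio was 0.959 in ctrl and 1.69 in Zfp276cko. Whether Id transcripts outnumber E-protein transcripts in ctrl thus depends on the length, and the fold difference with this length was 1.76. Protein was not measured.

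**Figure D3:**
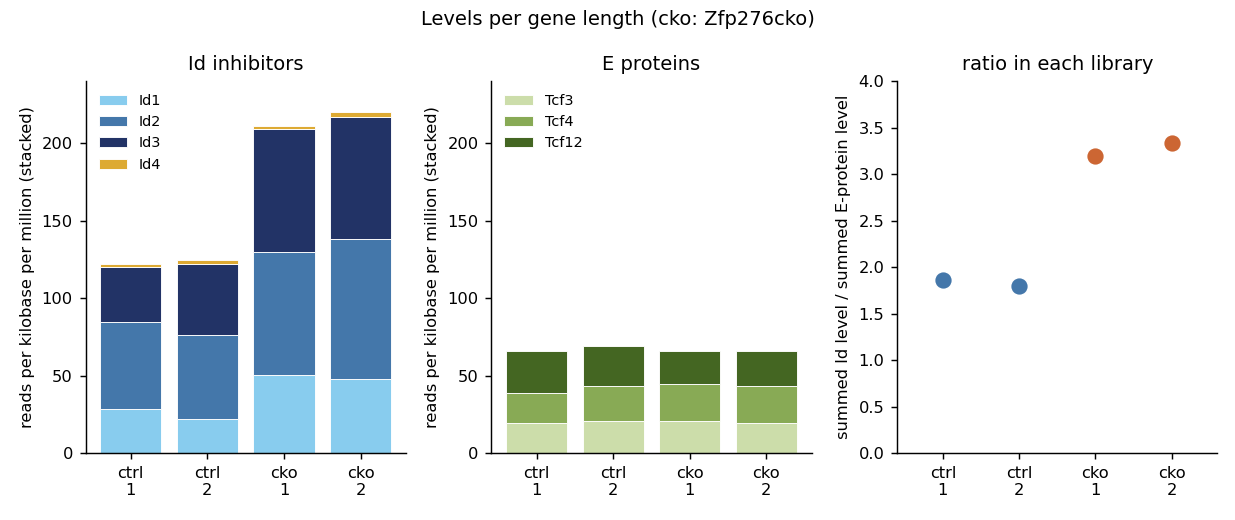
Stacked levels of Id genes (left) and E-protein genes (middle) in RPKM, and the ratio of the summed Id to the summed E-protein level (right), for each of the 4 libraries (x axis). The Id stacks are higher in both Zfp276cko libraries (211 and 220) than in ctrl (122 and 125), the E-protein stacks are level, and the ratio is near 1.8 in ctrl and above 3 in Zfp276cko.

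Most of the helix-loop-helix factors that pair with E proteins did not pass the filter on low counts, and those that did showed no common direction. Of 42 such genes 11 were tested, 2 lay above and 3 below without overlap (against 26.8% and 23.7% of all genes), and their median log2 fold change was −0.29 against −0.00 for all genes tested, but 0.60 without ctrl replicate 1. Olig1, a factor of oligodendrocyte maturation, was at 31743 and 28857 in ctrl and at 16810 and 16487 in Zfp276cko libraries (log2 fold change −0.86, adjusted p 0.123 in edgeR and 3.43e-07 in DESeq2). Olig2, which specifies the lineage, was at 13537 and 12402 against 8692 and 8392 (−0.60, adjusted p 0.162 in edgeR and 0.00122 in DESeq2). Atoh8 went the other way, with 226 and 187 against 489 and 461 (log2 fold change 1.20, adjusted p 0.123 in edgeR and 0.00015 in DESeq2). The count ratio of Id2 to Olig2, chosen after the data were seen, was 0.238 and 0.252 in ctrl and 0.526 and 0.621 in Zfp276cko libraries, a 2.34-fold difference.

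The BMP pathway upstream of the Id genes showed no common direction. Of 31 genes 27 were tested, 10 lay above and 4 below without overlap (against 26.8% and 23.7% of all genes), with a median log2 fold change of 0.21. Among the 4 ligands tested the log2 fold change ranged from −1.44 to −0.61, but 3 of them overlapped between genotypes. Bmp4, which inhibits oligodendrocyte maturation and induces Id genes, was at 1212 and 1427 in ctrl and at 653 and 664 in Zfp276cko libraries (0.499 of ctrl, adjusted p 0.117 in edgeR and 9.53e-06 in DESeq2). Bmp4 was thus lower in the libraries in which Id1, Id2 and Id3 were higher, and the part of BMP signals in the Id result was not tested. The ubiquitin ligases of Smads were lower in both Zfp276cko libraries, with Smurf1 at 2823 and 3420 against 1969 and 1959 (−0.67, adjusted p 0.162 in edgeR and 0.00496 in DESeq2). The receptor Bmpr1a overlapped (0.21), and the signal transducer Smad5 was at 3410 and 3434 against 3948 and 4051 (0.22). Without overlap, 2 of 8 receptors and 2 of 4 signal-transducing Smads lay above and 0 below. Of 3 inhibitory Smads or pseudoreceptors, 1 lay above and 1 below. Of 6 secreted modulators tested, 5 lay above without overlap (against 26.8% of all genes, with log2 fold changes of 0.32 to 0.99 over all 6). Among them Nog, a BMP antagonist named here after its values were seen, was at 131 and 141 against 243 and 298, with an adjusted p of 0.178 in edgeR and 0.0227 in DESeq2.

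**Figure D4:**
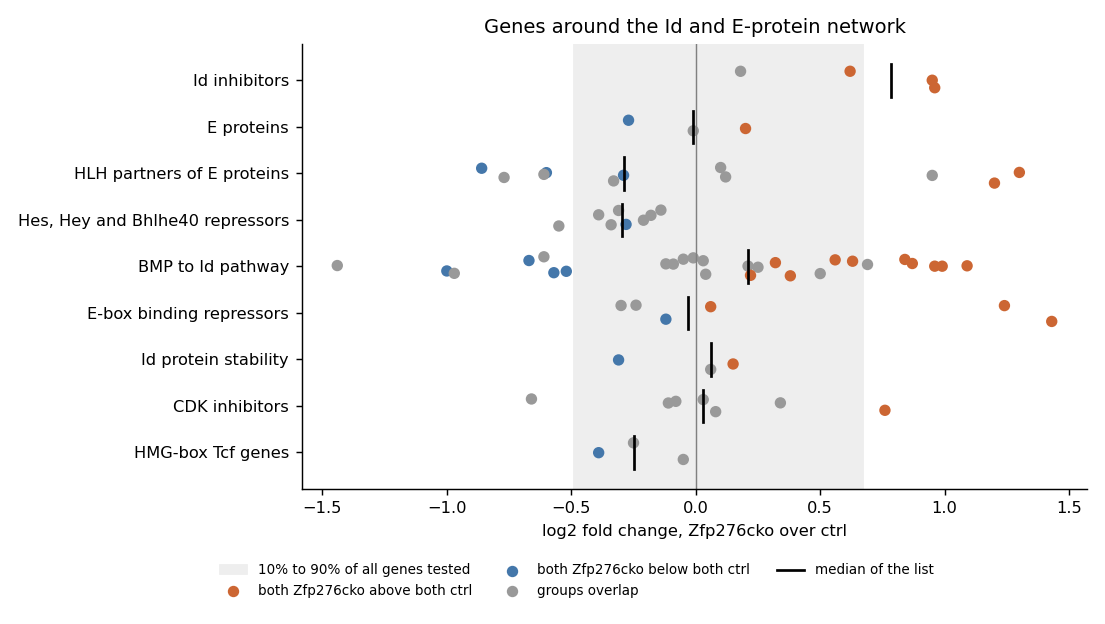
Log2 fold change, Zfp276cko over ctrl (x axis), of the tested genes in 9 lists (y axis), with a dot per gene, coloured by whether both Zfp276cko libraries lie above or below both ctrl libraries, and a line at each median. The grey band holds 10% to 90% of all genes tested (−0.49 to 0.67). Id1 and Id3 lie to the right of the band, and Id2, Id4 and the 3 E proteins lie inside it.

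Other genes tied to the network by function were examined list by list, beside shares over all genes of 26.8% above and 23.7% below without overlap. Of the Hes, Hey and Bhlhe40 repressors, 8 of 12 were tested and 1 lay below without overlap, Hes6, with 871 and 860 in ctrl and 685 and 738 in Zfp276cko libraries. Of 6 E-box binding repressors tested, 3 lay above and 1 below without overlap. Snai1 was at 9.5 and 14.6 in ctrl against 39.8 and 25.8 in Zfp276cko libraries (1.43, adjusted p 0.265 in edgeR). Snai2 was at 22.6 and 30.4 against 64.2 and 61 (1.24, adjusted p 0.205 in edgeR). Zeb1 was at 3925 and 3843 against 4047 and 4037, and Zeb2 at 12755 and 13735 against 12026 and 12325. Of 3 genes that govern the stability of Id proteins, Wdr48 lay above and Usp1 below without overlap. The deubiquitinase Usp1 was at 1143 and 1153 against 880 and 971 (−0.31, adjusted p 0.291 in edgeR and 0.387 in DESeq2). Its cofactor Wdr48 had a log2 fold change of 0.15 and the ubiquitin ligase activator Fzr1 of 0.06. Of 7 CDK inhibitors, some of which E proteins are known to activate in other cells, 1 lay above without overlap, Cdkn2a, and the median was 0.03. Tcf7l2 was at 1826 and 2485 against 1672 and 1607 and was counted separately from Tcf4.

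The study tested regulatory regions of Id2, Id4, Cspg4, Tgfb2 and Wnt7a for repression by Zfp276, in reporter assays with Sox10 in N2a cells. In CG4 cells with forced Zfp276 it reported lower transcripts of Id2, Id4, Tgfb2, Cspg4 and Pdgfra. In such cells it also found Zfp276 bound at regions of Wnt7a, Cspg4, Tgfb2 and Id4. Transcripts of the genes with tested regions are given here after loss of Zfp276 in primary cultures, which is another measure. Id2 was higher, as given above, and Id4 overlapped. Tgfb2 (log2 fold change 0.05) and Wnt7a (−0.37) overlapped between the genotypes as well. Cspg4, which encodes the progenitor marker NG2, was lower, at 2809 and 3918 in ctrl and 2300 and 2177 in Zfp276cko libraries, with an adjusted p of 0.277 in edgeR.

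Cell composition and the interferon response were examined beside the Id genes. The counts of markers without overlap stand beside shares over all genes of 26.8% above and 23.7% below. Oligodendrocyte markers summed to 322287 and 443296 normalized counts in ctrl and to 220981 and 226040 in Zfp276cko libraries, and 11 of 12 lay below without overlap. So did 6 of 9 progenitor markers, whose median log2 fold change was −0.59. The progenitor markers were not uniform. Neu4 (−1.74) and C1ql1 (−1.86) were among those below, while Pdgfra (−0.13), Sox6 (0.05) and Lhfpl3 (0.13) overlapped between the genotypes. In bulk cultures, fewer cells of a type and less RNA per cell cannot be told apart. Astrocyte markers, whose cells also express Id genes, summed to 47959 and 49516 in ctrl and to 43842 and 46209 in Zfp276cko libraries, with Gjb6 at 0. The sum hides opposite members, since of 11 tested 2 lay above and 2 below without overlap and the median log2 fold change was 0.01. Aldh1l1 was at 316 and 617 against 918 and 796, and S100b at 11207 and 16920 against 10325 and 9738. Endothelial markers were close to absent, at 195 to 309 counts in sum with Cldn5 at 0, and 2 of 5 tested lay above. The microglial sum was 28756 to 55934 in ctrl and included the 39454 and 41200 of Zfp276cko. Of the fibroblast and mural markers 3 of 10 lay below without overlap (against 23.7% of all genes), namely Acta2, Tagln and Cspg4, of which the last is also a progenitor marker. Their sums of 12577 and 4588 in ctrl and 2715 and 2517 in Zfp276cko libraries consist mostly of Cspg4 except in ctrl replicate 1, where Col1a2 and other fibroblast genes were high. Of 9 neuronal markers tested 1 lay above and 1 below. Of 20 interferon response genes 19 lay above, with sums of 16573 and 5827 in ctrl and 106087 and 103620 in Zfp276cko libraries. The part of these genes and cells in the Id result was not tested.

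Genes whose profile over the 4 libraries was nearest to a member were sought among 14323 genes, by the root mean square difference of centred log2 CPM (counts scaled to library size). The nearest were Ccdc122 (0.0199) for Id1, Tmem67 (0.0101) for Id2, Ypel4 (0.0313) for Id3 and Bbof1 (0.054) for Id4. Within a distance of 0.05 lay 11 genes for Id1, 16 for Id2, 11 for Id3 and 0 for Id4. For the E proteins, Cyb5r3 (0.00829), Dnajc17 (0.00276) and Srp54b (0.00855) were nearest to Tcf3, Tcf4 and Tcf12, and 575, 227 and 261 genes lay within 0.05. With 4 libraries such a likeness describes these libraries only.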

How the data were processed

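RNA was sequenced from 2 ctrl and 2 Zfp276cko preparations. The authors mapped reads of 101 bases to mm10 with STAR 2.5.4a and deposited whole-number counts per gene without normalization. Their methods name HTSeq as the counter and their processing notes featureCounts 1.5.1, and the strand setting is not given in the sources used here. Counts were analysed in R 4.3.3 with edgeR 4.0.16, filterByExpr (15766 genes, 99.9% of counts) and TMM normalization, by the quasi-likelihood test with Benjamini-Hochberg adjustment over all tested genes. Genes were called at an adjusted p up to 0.05, a log2 fold change of 0.6 or more in size and a mean of 20 or more normalized counts. DESeq2 1.42.0, limma 3.58.1 (voom) and the settings given below were alternatives.

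The 7 members and all gene lists were chosen with earlier results of these data known. Named genes were the members, Zfp276, the nearest profiles, in each list the 2 genes with the smallest p and the 2 with the highest mean, and genes the study names for progenitors, and others are said to be picked later. Promoter windows came from RefSeq and were used for 5 members. Replicate numbers were checked for pairing: the differences between replicates 1 and 2 correlated by 0.00636 between the genotypes over 14324 genes. No sign of pairing by number was seen in this value. The ctrl difference includes ctrl replicate 1, which stood apart, and pairing by a shared day of preparation was not tested. Replicates are separate preparations. The counting error given for Id4 covers counting only. The 95% intervals of the log2 fold changes come from the quasi-likelihood test and include variation between libraries. Some genes that the naming rule or the lists cover are not reported here.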

Additional observations from a re-analysis of the deposited data

How the results depend on the processing

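Id1, Id2 and Id3 kept their direction and Tcf12 stayed lower under every alternative run. With 1 library left out, this already follows from the absence of overlap between the genotypes. The number of genes called was 0 in each direction in edgeR's quasi-likelihood test and depended on the test: DESeq2 gave 338 lower and 449 higher, the likelihood ratio test 268 and 428, an unadjusted p 476 and 806, and no filter on low counts 8 higher. Leaving out 1 library gave 0 to 1286 lower and 0 to 1792 higher, with 952 and 1689 without ctrl replicate 1 and 1286 and 1792 without ctrl replicate 2. The lone ctrl library is then assumed to vary like the Zfp276cko libraries, which differ less from each other.

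Id1, Id2 and Id3 were called at 0.93, 0.61 and 0.95 (log2) by DESeq2 and at 0.95, 0.62 and 0.96 by the likelihood ratio test. Without 1 library they ranged from 0.77 to 1.14, 0.53 to 0.72 and 0.80 to 1.14, and were called without ctrl replicate 1 (Id1 and Id3 also without ctrl replicate 2). Id4 turned to −0.05 and −0.15 in the cases given above. With a replicate block, although no sign of pairing by number was seen, the values were 0.96, 0.62 and 0.97 for Id1, Id2 and Id3. They were 0.17 for Id4, −0.00 for Tcf3, 0.21 for Tcf4 and −0.27 for Tcf12, with 0 genes called.

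The Id to E-protein ratio was 0.232 in ctrl and 0.386 in Zfp276cko without division by length, and 0.959 and 1.69 with the longest coding transcript. List medians moved with 1 library left out: helix-loop-helix partners −0.29 to 0.60, Hes, Hey and Bhlhe40 repressors −0.73 to 0.26, E-box binding repressors −0.05 to 1.60, CDK inhibitors −0.13 to 0.20, HMG-box Tcf genes −0.36 to −0.05. The cause was not tested. With 2 libraries per genotype no direction is read from these medians.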
